A study of Mus musculus with 5 samples.

Results

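G protein, cyclic nucleotide and calcium signalling genes were compared between adult C57/B6 mouse retina and Swiss-Webster mouse cortex taken at postnatal day 1. They are the genes whose symbol in the probe annotation begins as that of a G protein subunit, RGS protein, arrestin, receptor kinase, nucleotide cyclase, phosphodiesterase, protein kinase A, C or G, A-kinase anchor, phospholipase C, diacylglycerol kinase, calmodulin or calmodulin kinase. Gng13, a gamma subunit that marks bipolar cells, was left out by that rule. The rule found 92 genes on 128 of the 21446 probes, and all 92 had a value on every array, out of 8825 such genes in all. Symbols were matched by their letters, so the set also holds genes of other families, which are described last.

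The series was made to learn how far expression values vary within an array platform. Total RNA of 1 pool per tissue was hybridised to 5 two-colour Agilent arrays, described as technical replicates, with retina in Cy5 and the cortex reference in Cy3 on each. Tissue, age, strain and dye therefore change together, no dye was swapped, and animals were not replicated. The p-values below measure the error between arrays of the same pools. The spread between animals, of retina as of cortex, is left out.

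Values are log2 ratios of retina over cortex, given as mean ± SD over n = 5 arrays. The deposited values were read as log10 ratios, because they stop exactly at 2 and -2. That base and the direction are likely and not stated, the direction from the dyes and from retina standing first in the titles. With the reverse direction all signs would turn. On the scale used, the photoreceptor genes Cdhr1, Opn1sw and Cngb1 stood at 4.30 ± 0.05, 3.28 ± 0.09 and 2.97 ± 0.23. Otx2, a gene of bipolar cells and photoreceptors, stood at 3.42 ± 0.03 and the immature neuron gene Dcx at -3.99 ± 0.04. By these markers the ratio is retina over cortex. The calls higher and lower in retina mean that limma's 2-fold test, which asks whether the log2 ratio lies beyond 1 in either direction, gave a Benjamini-Hochberg adjusted p below 0.05 over all 8825 genes. In whole tissue, fewer cells of a type and less RNA per cell cannot be told apart.

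Heterotrimeric G proteins carry signals from receptors to enzymes and channels. Their alpha subunit binds GTP, the beta and gamma subunits act as a pair, and RGS proteins speed the return to the resting state. In rods and cones the G protein transducin activates a phosphodiesterase that breaks down cyclic GMP and so closes cyclic nucleotide-gated channels, whereas in ON bipolar cells a Go-type G protein follows the receptor mGluR6. In neurons at large, Gq proteins activate phospholipase C, which yields diacylglycerol for protein kinase C and releases calcium that acts through calmodulin, while Gs and Gi proteins set cyclic AMP and protein kinase A.

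Of the 92 signalling genes, 4 were higher in retina and 8 were lower, while 80 did not pass the 2-fold test. The 12 called genes are 13.0% of the set, where 6.62% of all genes were called. The 4 higher genes are 4.35% of the set, where 2.79% of all genes were called higher, and the 8 lower ones are 8.70%, where 3.83% of all genes were called lower. The higher genes were Gnb1, Prkab1, Plcd3 and Camk1d, and the lower ones Gng2, Plcb1, Gnai3, Gnaq, Prkar2b, Pde10a, Akap9 and Gng12. The median log2 ratio was -0.14 over the 92 genes and -0.00487 over all genes, and 62 of the 92, or 67.4%, lay within 0.5 log2 of 0, where 72.0% of all genes did. With the median probe in place of the mean, and the higher one of a middle pair, the median of the 92 genes was -0.059. All 12 called genes had the same sign on all 5 arrays, and limma's adjusted p of the 2-fold test among them ran from 8.26e-07 for Gng2 to 0.0358 for Camk1d.

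**Figure D1:**
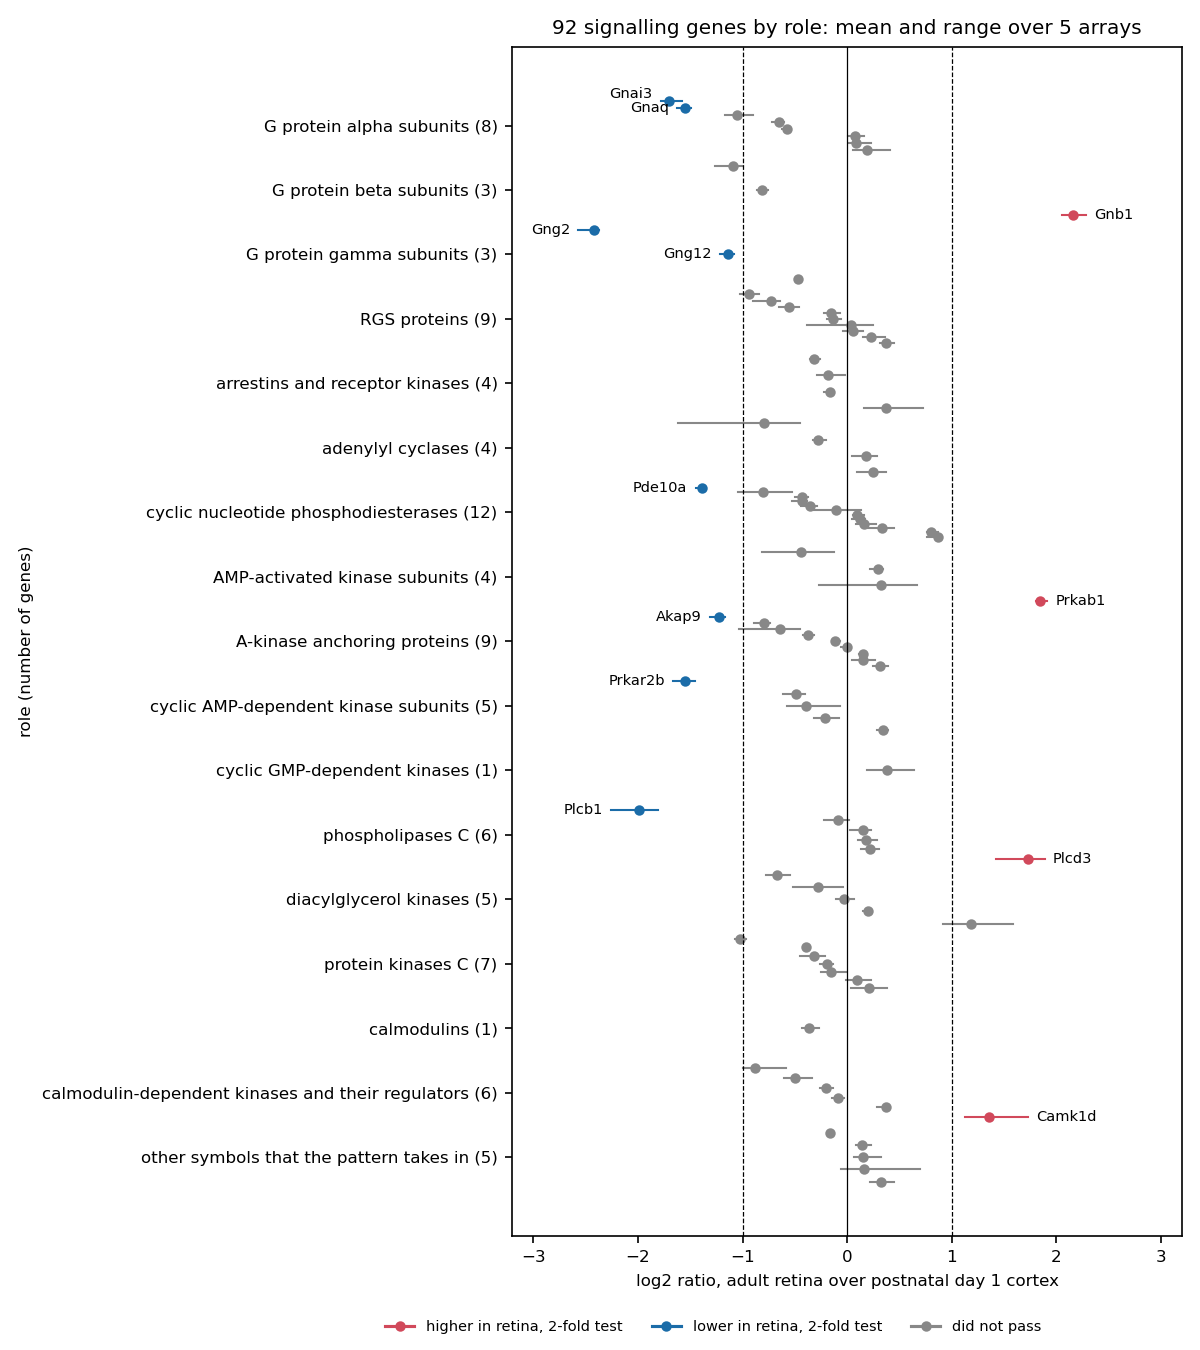
Mean log2 ratio (dot) and lowest to highest of 5 arrays (line) of the 92 signalling genes, grouped by role on the vertical axis, with the horizontal axis in log2 units and dashed lines at 2-fold. The 4 genes in red and 8 in blue passed the 2-fold test, and 80 in grey did not.

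The tissues were set against marker genes of their cells. In retina 3 of 3 measured photoreceptor markers and 2 of 2 bipolar markers were higher, of 22 and 11 listed. The bipolar markers were Gng13 and Otx2, and Otx2 is shared with photoreceptors. Of amacrine and horizontal cell markers 2 of 6 were higher, of ganglion cell markers 2 of 4, and of those of Müller glia and astrocytes 2 of 6, with 1 lower. Of cortical projection neuron markers 5 of 8 were lower, of interneuron markers 1 of 3, of immature neuron markers 8 of 9 (median -2.30, from -2.37 to -2.17 over arrays) and of dividing cell markers 2 of 8. Among cells that either piece could also hold, 3 of 6 vessel markers were higher (Flt1, Slc2a1 and Kdr). The other vessel markers did not pass, with Pecam1 at 0.14 ± 0.17, Cdh5 at -0.47 ± 0.04 and Eng at -0.53 ± 0.05. Of meningeal markers 3 of 7 were lower. The single genes measured from the lists for pigment epithelium (Ttr) and red cells (Hbb-b2) were also lower. Ttr is not particular to pigment epithelium, and 1 gene does not measure the share of a cell type. No marker of microglia (4 measured), oligodendrocytes (2), muscle (4) or lens (1) passed. The part of these cell types in the ratios of the signalling genes was not tested.

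Promoter stretches are shown for Gnb1, the highest of the set, for Gng2, the lowest, and for Gnaq and Plcb1, which were both lower and encode successive steps of a Gq signal. Each is the 250 bases before the start of the gene in RefSeq, build GRCm38.p6, on the gene's own strand. Capitals mark GGGCGG, the core of Sp1-type GC boxes, or its reverse complement.
Gnb1: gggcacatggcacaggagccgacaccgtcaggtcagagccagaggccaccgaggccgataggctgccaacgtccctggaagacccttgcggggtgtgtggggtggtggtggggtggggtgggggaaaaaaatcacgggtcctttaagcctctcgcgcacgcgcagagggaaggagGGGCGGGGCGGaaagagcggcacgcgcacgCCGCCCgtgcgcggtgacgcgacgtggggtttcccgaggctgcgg
Gnaq: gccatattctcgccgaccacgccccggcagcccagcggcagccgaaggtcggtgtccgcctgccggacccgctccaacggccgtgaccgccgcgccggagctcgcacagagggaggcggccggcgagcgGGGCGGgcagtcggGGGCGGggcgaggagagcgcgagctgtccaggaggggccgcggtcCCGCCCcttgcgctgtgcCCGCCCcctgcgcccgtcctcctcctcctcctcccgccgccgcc
Plcb1: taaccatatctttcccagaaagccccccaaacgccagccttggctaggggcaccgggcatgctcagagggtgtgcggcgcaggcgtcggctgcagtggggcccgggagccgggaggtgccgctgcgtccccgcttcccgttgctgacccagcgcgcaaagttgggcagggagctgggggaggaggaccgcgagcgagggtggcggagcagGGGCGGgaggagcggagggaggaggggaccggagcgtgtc
Gng2: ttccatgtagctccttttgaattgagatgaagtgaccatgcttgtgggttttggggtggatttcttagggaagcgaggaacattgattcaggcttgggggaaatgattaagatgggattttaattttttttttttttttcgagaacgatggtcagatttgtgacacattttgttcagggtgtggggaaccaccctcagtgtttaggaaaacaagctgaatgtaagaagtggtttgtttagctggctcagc
The stretches lie at chr4:155491111-155491360 on the plus strand for Gnb1, chr19:16132434-16132683 on the plus strand for Gnaq, chr2:134785914-134786163 on the plus strand for Plcb1 and chr14:19976694-19976943 on the minus strand for Gng2. Their GC content was 69.2%, 79.2%, 71.2% and 41.2%, so the stretch of Gng2 stands apart from the other three.

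Both strands of such stretches were searched for 4 motifs, across 32851 entries for all genes in the table and 131 entries that matched 78 of the 92 signalling genes. GGGCGG occurred 3 times before Gnb1, where 2 copies share 1 base, 4 times before Gnaq, 1 time before Plcb1 and 0 times before Gng2. It was present in 4 of 5 stretches of the higher genes, in 6 of 11 of the lower genes, in 56.5% of the 131 and in 32.7% of all. TAATCC, the core that the photoreceptor homeobox factors CRX and OTX2 bind, was in none of the 5 and none of the 11. It was in 4.58% of the 131 and in 6.25% of all. The cyclic AMP response element TGACGTCA was in none of the 5 or 11 either, in 0.763% of the 131 and in 1.55% of all. CAGATG, an E-box of neuronal bHLH factors, was in 1 of the 5 (Camk1d) and 1 of the 11 (Pde10a). It was in 16.8% of the 131 and in 14.4% of all. The shares of all entries include genes not measured on the array, and differences in share were not tested. No copy of GGGCGG overlapped one of another motif in the stretches of the called genes.

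Among the G protein alpha subunits, 2 of 8 were lower in retina and none was higher, with a median of -0.61. Gnai3, an inhibitory subunit that lowers cyclic AMP, read -1.77, -1.78, -1.60, -1.78 and -1.57 on arrays 1 to 5. All 5 arrays lie well beyond 2-fold, with arrays 3 and 5 nearest to 0, and the mean was -1.70 ± 0.10, or 3.25-fold lower (limma 2-fold test, adjusted p = 5.23e-05). Gnaq, which activates phospholipase C beta, read -1.55, -1.55, -1.49, -1.63 and -1.55, a mean of -1.55 ± 0.05 or 2.93-fold lower (limma 2-fold test, adjusted p = 1.68e-05). Its arrays spread over only 0.14 log2, but its 2 probes differed, at -1.97 ± 0.06 and -1.13 ± 0.07, and each passed when fitted alone. Gnai1 at -1.06 ± 0.11 lay near 2-fold and did not pass. Gnao1, the Go subunit that neurons hold in large amounts and that ON bipolar cells use, stood at -0.65 ± 0.04, and Gna11, the close relative of Gnaq, at -0.58 ± 0.03. Gnai2 (0.09 ± 0.09), Gna13 (0.08 ± 0.07) and Gna14 (0.19 ± 0.14) lay near 0. No rod or cone transducin alpha subunit was measured under its symbol.

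Gnb1 was the member with the highest ratio. It encodes the beta subunit of rod transducin and is also used by many other G proteins. It read 2.06, 2.08, 2.28, 2.12 and 2.24 on arrays 1 to 5, with arrays 3 and 5 above the rest, and a mean of 2.15 ± 0.10 or 4.45-fold higher in retina (limma 2-fold test, adjusted p = 3.51e-06). Both its probes passed alone, at 2.36 ± 0.06 and 1.95 ± 0.14. The other beta subunits lay on the other side of 0. Gnb4 read between -1.27 and -0.996 with a mean of -1.09 ± 0.11, and Gnb2 between -0.86 and -0.75 with a mean of -0.82 ± 0.04, and neither passed. For each of them 1 of 2 probes passed alone, at -1.33 ± 0.09 for Gnb4 and -1.38 ± 0.06 for Gnb2, while the other stood at -0.85 ± 0.20 and -0.25 ± 0.05.

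Of the 3 gamma subunits that the rule takes in, 2 were lower, and the third also had a mean below 0. Gng13, a gamma subunit that the rule leaves out, was higher at 3.37 ± 0.08. Gng2, a widely used gamma subunit of brain, read -2.39, -2.38, -2.37, -2.57 and -2.40. Array 4 was the lowest and the other 4 lay within 0.03 log2 of each other. The mean of -2.42 ± 0.08, or 5.36-fold lower, was the lowest ratio of the 92 genes (limma 2-fold test, adjusted p = 8.26e-07). Gng12 read between -1.22 and -1.08, a mean of -1.14 ± 0.06 or 2.20-fold lower (limma 2-fold test, adjusted p = 0.0241). Gng12 sits close to the threshold: without array 1, 2, 3 or 4 its adjusted p was 0.0965, 0.0734, 0.0619 or 0.0902, with log2 ratios from -1.15 to -1.12 over the arrays left out in turn. With the arrays scaled to a common spread its adjusted p was 0.275, the highest over all its alternatives with the same minimum and log base, and 0.0173 the lowest. Gng3, a neuronal gamma subunit, stood at -0.46 ± 0.02 and did not pass.

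**Figure D2:**
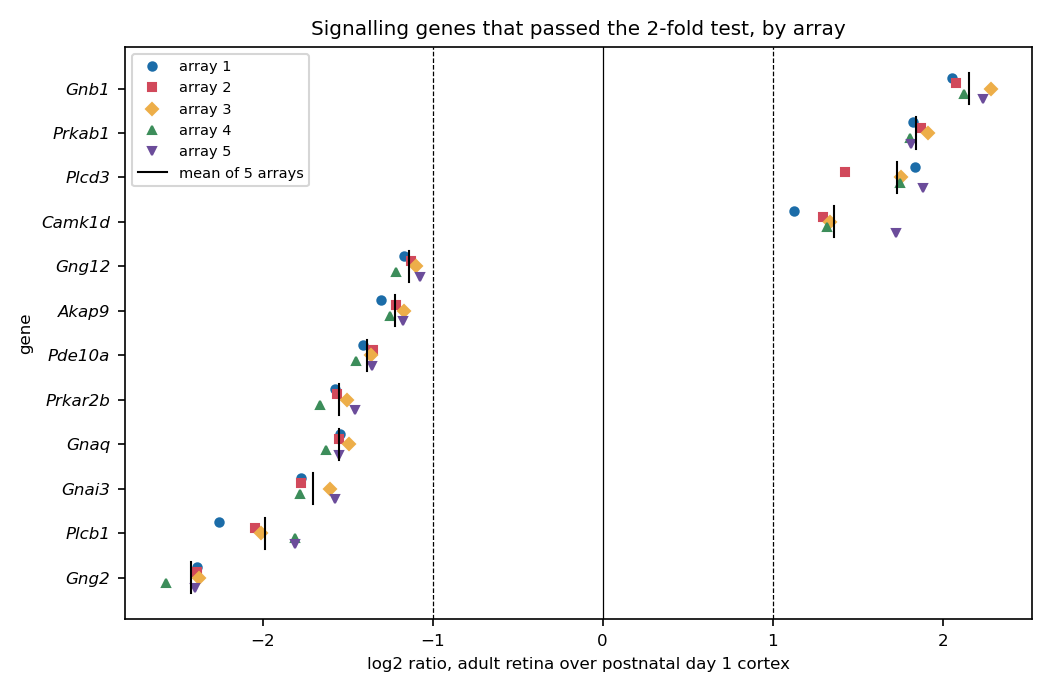
Log2 ratios (horizontal axis) of the 12 signalling genes that passed the 2-fold test (vertical axis), with 1 symbol per array, a bar at the mean of 5 arrays and dashed lines at 2-fold. The arrays of a gene lie within 0.6 log2 of each other, and Camk1d, Plcd3 and Plcb1 spread most.

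None of the 9 RGS proteins passed, and their median was -0.13. Rgs19, which acts on Gi-type subunits, was farthest from 0 at -0.94 ± 0.07, with all arrays between -1.03 and -0.85. Rgs17 followed at -0.73 ± 0.11, as the mean of a probe at -1.26 ± 0.01 that passed alone and a probe at -0.19 ± 0.21 that did not. Rgs10, which is abundant in microglia as well as in neurons, stood at -0.55 ± 0.09, beside 0 of 4 microglial markers past the test. Rgs2, an inhibitor of Gq signals, was the highest at 0.37 ± 0.05, and Rgs5, a gene of pericytes, stood at -0.15 ± 0.07. Rgs11, which in retina serves the mGluR6 cascade of ON bipolar cells, read 0.25, -0.38, 0.17, -0.02 and 0.15, so its arrays fall on either side of 0 and its mean was 0.03 ± 0.25. Rgs3 with 4 probes (0.06 ± 0.07), Rgs12 (-0.13 ± 0.05) and Rgs1 (0.23 ± 0.09) lay near 0.

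The receptor kinases and arrestins, which switch off activated receptors, had 0 of 4 genes past the test. Grk5 stood at 0.37 ± 0.22, Grk3 at -0.18 ± 0.11, Grk6 at -0.31 ± 0.04 and Arrb2 at -0.16 ± 0.04. The visual receptor kinase Grk1 was not measured under its symbol.

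Enzymes that make cyclic nucleotides gave no calls. The 4 adenylyl cyclases had a median of -0.05. Adcy7 was farthest from 0 at -0.80 ± 0.47, the largest SD of the 92 genes. Array 2 read -1.61 whereas the rest lay from -0.74 to -0.45, so the mean rests in part on that array. Adcy5, Adcy6 and Adcy9 stood at -0.28 ± 0.05, 0.24 ± 0.10 and 0.18 ± 0.10. No guanylyl cyclase was measured under a Gucy symbol.

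Of 12 cyclic nucleotide phosphodiesterases 1 was lower, none was higher and 11 did not pass. Pde10a, an enzyme that breaks down cyclic AMP and cyclic GMP and is best known from striatal neurons, read -1.41, -1.35, -1.36, -1.45 and -1.36. Its arrays lay within 0.1 log2 of each other, and the mean of -1.39 ± 0.04 is 2.61-fold lower in retina (limma 2-fold test, adjusted p = 7.69e-05). The highest was Pde8a, a high-affinity cyclic AMP phosphodiesterase, at 0.87 ± 0.06. Next came Pde6d at 0.80 ± 0.04, with every array between 0.77 and 0.86. Pde6d carries prenylated proteins, among them the rod phosphodiesterase, to the outer segment, and it was the only gene with a Pde6 symbol that was measured. Both fell short of 2-fold on every array and did not pass. The calcium- and calmodulin-activated enzymes diverged in their means, with Pde1a at -0.80 ± 0.20, Pde1b at 0.12 ± 0.05 and Pde1c at 0.33 ± 0.12. The other 6, Pde2a, Pde3b, Pde4a, Pde4b, Pde4d and Pde5a, had means between -0.43 and 0.16.

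Protein kinase A is a tetramer of regulatory and catalytic subunits that cyclic AMP takes apart. Of its 5 measured subunit genes 1 was lower. Prkar2b, the type II beta regulatory subunit of brain and fat, read -1.57, -1.56, -1.50, -1.66 and -1.46, all beyond 2-fold. Its mean of -1.55 ± 0.08 is 2.93-fold lower in retina (limma 2-fold test, adjusted p = 6.22e-05). The type II alpha subunit Prkar2a stood at 0.34 ± 0.04, and its arrays, from 0.29 to 0.39, do not overlap those of Prkar2b. The type I subunits Prkar1a (-0.39 ± 0.21) and Prkar1b (-0.49 ± 0.08) and the catalytic Prkacb (-0.21 ± 0.09) did not pass.

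Of 9 A-kinase anchoring proteins, which tether protein kinase A to places in the cell, 1 was lower. Akap9, an anchor at the centrosome and Golgi, read -1.31, -1.21, -1.17, -1.25 and -1.17. The mean was -1.22 ± 0.06, or 2.34-fold lower (limma 2-fold test, adjusted p = 0.00237). Its probes stood at -1.33 ± 0.14 and -1.12 ± 0.06, of which the first passed alone and the second gave an adjusted p of 0.0579, and with the arrays scaled to a common spread the gene's adjusted p was 0.0864, within a range of 0.00179 to 0.0864 over its alternatives with the same minimum and log base. Akap12, known as gravin, stood at -0.80 ± 0.06 with all arrays between -0.89 and -0.74, and Akap8l at -0.64 ± 0.24. The other 6 anchors had means between -0.37 (Akap2) and 0.32 (Akap13), among them the mitochondrial anchor Akap1 at -0.01 ± 0.03. The cyclic GMP-dependent kinase Prkg1 stood at 0.38 ± 0.16, also without a call.

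Phospholipases C, which split a membrane phosphoinositide into diacylglycerol and inositol trisphosphate, held 1 higher and 1 lower gene of 6. Plcb1, which Gq subunits activate and which is abundant in cortex, read -2.26, -2.05, -2.01, -1.81 and -1.81. Array 1 was the lowest and arrays 4 and 5 the highest, and the mean was -1.99 ± 0.19, or 3.96-fold lower in retina (limma 2-fold test, adjusted p = 0.000116). Plcd3, of the calcium-sensitive delta class, read 1.83, 1.43, 1.76, 1.75 and 1.89, with array 2 the lowest. Its mean was 1.73 ± 0.18, or 3.32-fold higher (limma 2-fold test, adjusted p = 0.000444), and is an average of unlike probes. One Plcd3 probe stood at 2.67 ± 0.37 and passed alone, the other at 0.79 ± 0.11 and did not, with an adjusted p of 1. With the lower probe in place of the mean Plcd3 was not called, with the higher probe it was, and over all alternatives with the same minimum and log base its adjusted p ran from 4.32e-05 to 1. Plcb3 (-0.09 ± 0.09), Plcd1 (0.18 ± 0.08), Plce1 (0.22 ± 0.07) and Plcg2 (0.15 ± 0.08) lay near 0.

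Diacylglycerol kinases end the diacylglycerol signal by phosphorylation, and 0 of 5 passed. Dgke, which prefers the diacylglycerol that comes from phosphoinositides, read 0.92, 1.05, 1.22, 1.14 and 1.58, with array 5 the highest. Its mean of 1.18 ± 0.25 is beyond 2-fold, but array 1 is not, and the limma 2-fold test gave an adjusted p of 0.609. Dgkh stood at -0.67 ± 0.10, and Dgka, Dgkd and Dgkq had means between -0.27 and 0.20.

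Protein kinases C had 0 of 7 genes past the test, with a median of -0.19. Prkcb, a conventional isoform abundant in forebrain, was farthest from 0 at -1.03 ± 0.04. Of its 3 probes 2 passed alone, at -1.57 ± 0.05 and -1.42 ± 0.06, while the third stood at -0.09 ± 0.08. With the median probe in place of the mean the gene was lower, with an adjusted p of 0.000139 from limma, and over its alternatives with the same minimum and log base the value ran from 1.31e-05 to 1. Prkce had probes at -0.87 ± 0.06 and 0.09 ± 0.06, and Prkch at -0.66 ± 0.11 and 0.03 ± 0.14, so the means of -0.39 and -0.32 join probes of opposite sign. Prkcd, Prkci, Prkcq and Prkcz had means between -0.19 and 0.21. Prkca, the isoform used to label rod bipolar cells, was not measured under its symbol.

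Calmodulin and its kinases held 1 called gene, Camk1d, of 7. Camk1d, a calmodulin-dependent kinase of the CaMKI family, read 1.13, 1.30, 1.34, 1.32 and 1.72. Array 5 was the highest and array 1 the lowest, and the mean was 1.36 ± 0.22, or 2.57-fold higher in retina (limma 2-fold test, adjusted p = 0.0358). Without array 2, 3 or 4 its adjusted p was 0.0815, 0.116 or 0.111, with log2 ratios of 1.38, 1.37 and 1.37, and with scaled arrays 0.0668, within 0.0155 to 0.116 over its alternatives with the same minimum and log base. Camkv, a kinase-like protein of synaptic vesicles, stood at -0.88 ± 0.17 and Camk1 at -0.20 ± 0.06. Of CaMKII, the abundant synaptic kinase, Camk2a stood at -0.08 ± 0.05, Camk2d at 0.37 ± 0.05 and Camk2g at -0.50 ± 0.11. Calm3, a gene for calmodulin itself, read -0.36 ± 0.06.

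Several symbols fit the pattern without belonging to the families that it names. The AMP-activated protein kinase, a sensor of cell energy and not of cyclic AMP, had 1 of 4 subunit genes called. Its beta subunit Prkab1 read 1.82, 1.87, 1.91, 1.81 and 1.81, a mean of 1.84 ± 0.04 or 3.59-fold higher in retina (limma 2-fold test, adjusted p = 1.80e-06). The arrays of Prkab1 lay within about 0.1 log2, whereas those of the other beta subunit, Prkab2, ran from -0.82 to -0.13 around a mean of -0.44 ± 0.27. For the catalytic Prkaa1, array 1 alone was below 0, at -0.27, with the rest from 0.34 to 0.66. The gamma subunit Prkag1 stood at 0.30 ± 0.06. Of 5 further genes outside those families none passed. They are the anchoring protein Pde4dip (0.32 ± 0.08, with probes at 0.997 ± 0.115 and -0.36 ± 0.05, so that the lower probe alone turns its direction), the mitochondrial RNA-degrading enzyme Pde12 (0.16 ± 0.32), the glucosidase II subunit Prkcsh (0.15 ± 0.10), the PACAP receptor Adcyap1r1 (0.15 ± 0.07) and Gnb1l (-0.17 ± 0.02).

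Some close relatives had unlike ratios, and 9 such pairs are described here. Gnb1 exceeded Gnb2 by 2.97 ± 0.11 log2 and Gnb4 by 3.25 ± 0.07, so the ratio of Gnb1 was 7.84 and 9.49 times theirs. Prkab1 exceeded Prkab2 by 2.28 ± 0.29, with every array between 1.94 and 2.64. Gng3 exceeded Gng2 by 1.96 ± 0.06, Plcb3 exceeded Plcb1 by 1.90 ± 0.17 and Prkar2a exceeded Prkar2b by 1.90 ± 0.08. In the same way Gnai2 exceeded Gnai3 by 1.79 ± 0.16, Camk1d exceeded Camk1 by 1.56 ± 0.26 and Gna11 exceeded Gnaq by 0.98 ± 0.06. In each of these 9 pairs the difference had the same sign on all 5 arrays and the arrays of the genes did not overlap. The SDs are over arrays of gene means and leave out the spread between probes. For example, the probes of Gnb2 stood at -1.38 and -0.25 and those of Gnaq at -1.97 and -1.13, so these differences depend on the probe. The pairs were picked after their values were seen, for their difference, and relatives with like ratios, such as Prkar1a and Prkar1b, were not counted, so the differences are a description with no test, and they compare ratios, not levels of the genes.

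**Figure D3:**
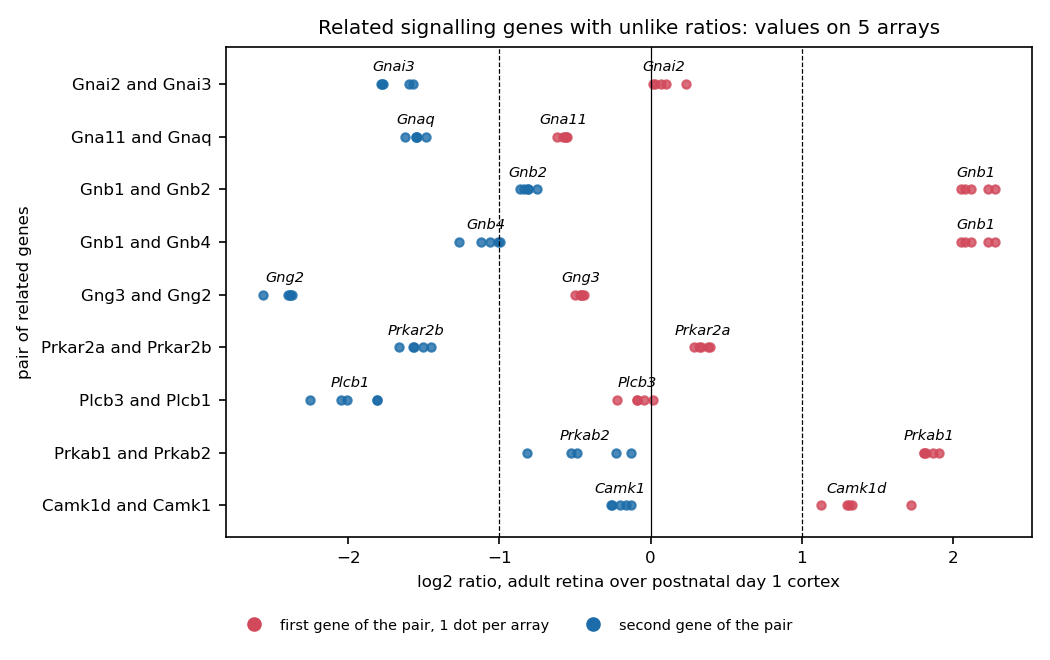
Log2 ratios on 5 arrays (1 dot each, horizontal axis) of 9 pairs of related signalling genes (vertical axis), with the gene of the higher ratio in red and its relative in blue and dashed lines at 2-fold. Red and blue dots of a pair do not overlap, and the widest gap is that of Gnb1 to Gnb4, at 3.25 log2.

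The counts above depend in part on how probes were joined. Of the 92 genes 26 had several probes, and the median range between the probe means of a gene was 0.55 log2. In 8 of the 26 the probe means differed in sign: Akap11, Gna13, Pde4dip, Plcb3, Prkacb, Prkce, Prkch and Rgs5. In 5 of them, Gnb2, Pde4dip, Plcd3, Prkcb and Rgs17, the probes lay over 1 log2 apart. The 3 probes of Akap11 stood at -0.20 ± 0.02, 0.14 ± 0.24 and 0.52 ± 0.19, and their mean of 0.15 ± 0.03 hides that spread. Prkacb had probes at -0.52 ± 0.16 and 0.10 ± 0.05, Rgs5 at -0.38 ± 0.05 and 0.08 ± 0.12, and Gna13 at -0.13 ± 0.05 and 0.28 ± 0.12. Fitted alone, 14 of 127 probes were lower and 5 higher, where 6.76% of all probes passed in either direction, and 3 higher and 7 lower genes passed with every probe.

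**Figure D4:**
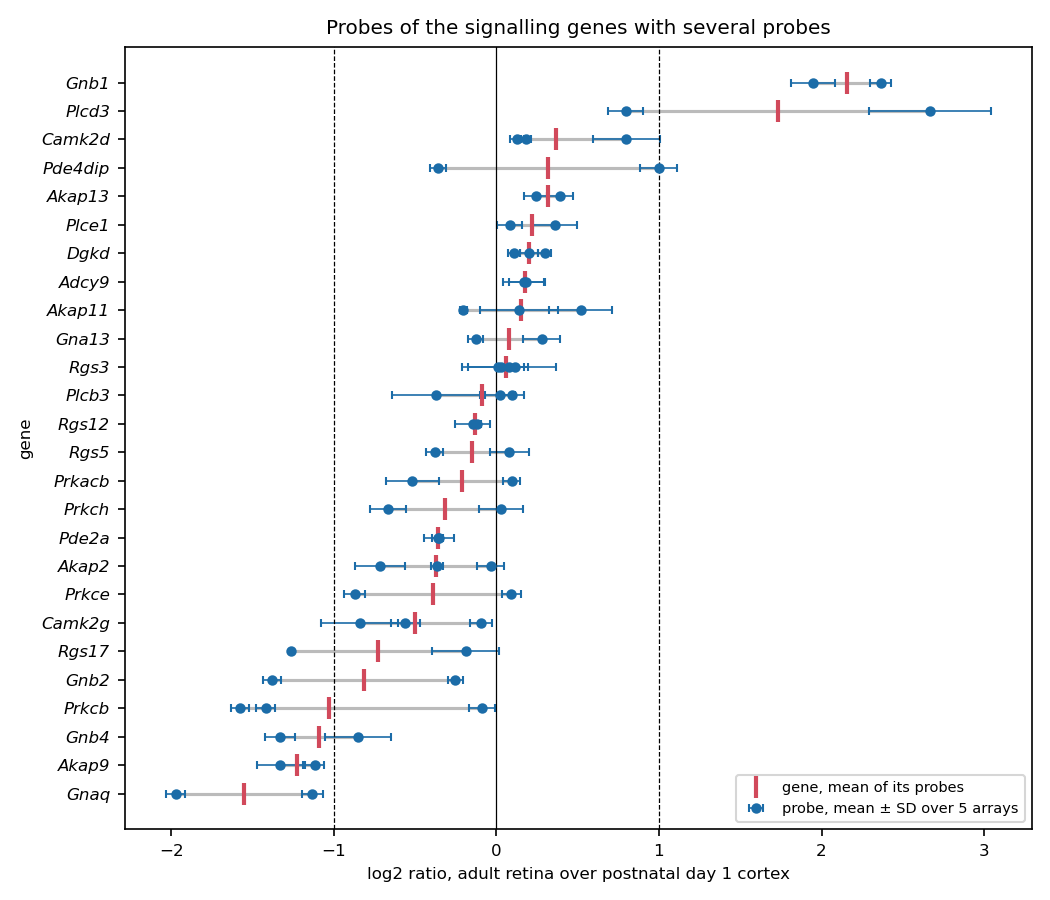
Mean ± SD over 5 arrays of each probe (blue) and the mean of the probes (red bar) for the 26 signalling genes with several probes (vertical axis), in log2 units of retina over cortex (horizontal axis), with dashed lines at 2-fold. The probes of Plcd3 and Prkcb lie 1.87 and 1.49 log2 apart, whereas those of Gnb1 lie 0.42 apart on the same side of 2-fold.

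Repeat arrays gave close values for these genes, which was the question of the series. Over the 92 genes the median array-to-array SD was 0.077 log2, from 0.016 for Gnb1l to 0.467 for Adcy7, while that over all genes was 0.085. Only Adcy7, Prkaa1, Pde12, Prkab2 and Rgs11 had an SD above 0.25. For 83 of the 92 genes, or 90.2%, no array differed in sign, against 73.5% of all genes. Against a ratio of 0 instead of 2-fold, limma called 81 of the 92 genes, or 88.0%, where it called 73.6% of all genes, and of the 81 genes 32 had a mean above 0 and 49 one below 0. Retina carried the same dye throughout, so a dye effect of a probe and a difference between the tissues cannot be told apart. Array 5 gave the highest value of a gene for 34 of the 92, or 37.0%, and for 30.5% of all genes.

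Other genes of these pathways, outside the symbol pattern, were taken from 7 lists of 134 genes, of which 51 were measured. Of these 8 were higher and 5 lower in retina, with a median of -0.01. Of all 8825 genes 2.79% were called higher and 3.83% lower. Some of the 51 were known to be far from 0 when the lists were made, so the counts are a description.

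Opn1sw, Cngb1, Gng13, Gap43 and Calb1 below are also among the cell type markers above, so these counts share genes with the marker counts. Phototransduction partners were higher for 2 of 3 measured genes. The short-wave cone opsin Opn1sw stood at 3.28 ± 0.09 and the channel subunit Cngb1, on which transducin's signal ends, at 2.97 ± 0.23, while the phosducin-like Pdcl (0.41 ± 0.07) did not pass. Of the list for the mGluR6 cascade only Gng13 was measured, at 10.3-fold higher, whereas Gnao1 and Rgs11, which serve the same cascade and fall under the symbol rule, stood at -0.65 ± 0.04 and 0.03 ± 0.25 without a call. Among G protein accessory proteins 2 of 11 were higher. Gpsm2, which binds Gi subunits and orients the mitotic spindle, read 3.16, 3.05, 3.07, 2.81 and 3.00, a mean of 3.02 ± 0.13 (limma 2-fold test, adjusted p = 8.05e-07). Ric8b, a chaperone of Gs-type alpha subunits, read between 1.96 and 2.08 with a mean of 2.01 ± 0.05, or 4.03-fold higher, while its relative Ric8a, which serves Gi, Gq and G13 subunits, stood at -0.65 ± 0.06. The lower gene of that list, Gpm6a at -1.61 ± 0.16, encodes a neuronal membrane glycoprotein and is not known as a G protein regulator.

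Partners on the lipid side were higher for 3 of 11 genes. Cds1, which makes CDP-diacylglycerol for the rebuilding of phosphoinositides, read 3.29, 3.33, 3.35, 3.31 and 3.33. It was higher, at 3.32 ± 0.03 (limma 2-fold test, adjusted p = 3.48e-08), next to Cds2 at 1.10 ± 0.23, which did not pass. The diacylglycerol-binding proteins of synaptic vesicle priming Unc13b and Unc13c were higher at 1.48 ± 0.11 and 1.32 ± 0.08. In the list for calcium-binding proteins and calcineurin 3 of 10 genes were lower. All 3 are substrates of protein kinase C and are neither calcium-binding proteins nor calcineurin genes. They were Gap43 at -3.19 ± 0.13, a growth cone protein that also binds calmodulin, Marcksl1 at -2.88 ± 0.06 and Marcks at -2.005 ± 0.105. The other 7 genes of that list did not pass, among them the calcineurin subunits Ppp3ca (-0.33 ± 0.04) and Ppp3cb (-0.60 ± 0.11). Calbindin, Calb1 (0.73 ± 0.09), was also among these 7.

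Calcium stores, pumps and exchangers were lower for 1 of 9 genes. The sodium-calcium exchanger Slc8a1 read between -1.50 and -1.12, a mean of -1.33 ± 0.17 (limma 2-fold test, adjusted p = 0.0181), and without array 1, 2 or 4 its adjusted p was 0.0742, 0.0534 or 0.0817, with log2 ratios from -1.31 to -1.29. None of 6 cyclic nucleotide effectors and inhibitors passed limma's 2-fold test. The farthest from 0 was the CREB coactivator Crtc2 at 0.69 ± 0.06.

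**Figure D5:**
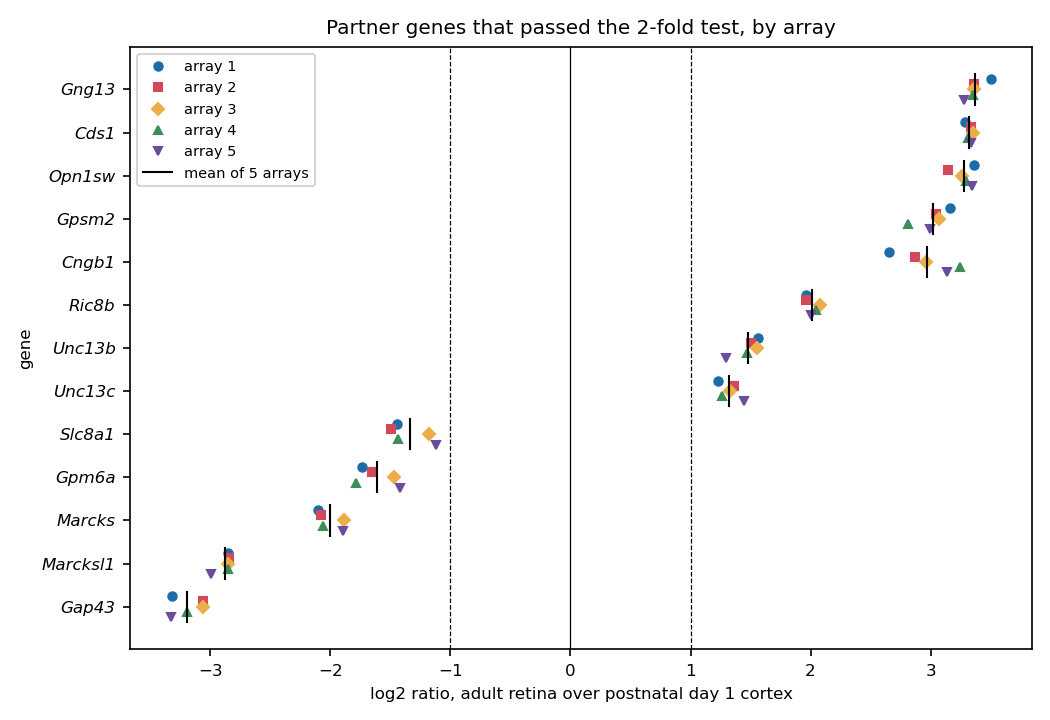
Log2 ratios (horizontal axis) of the 13 partner genes that passed the 2-fold test (vertical axis), with 1 symbol per array, a bar at the mean of 5 arrays and dashed lines at 2-fold. The 8 higher genes run from Unc13c at 1.32 to Gng13 at 3.37 and the 5 lower ones from Slc8a1 at -1.33 to Gap43 at -3.19.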

How the data were processed

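The 5 arrays carried the same pair of RNA pools and form 1 group. The deposited table holds 1 signed value per probe and array, read as log10 ratios. Per the labels retina carried Cy5. How background was corrected and values normalized or filtered is not given in the sources used here, nor is the base. Spot intensities were not used here. On the deposited scale the column medians were 0 for arrays 1 to 4 and -7.32e-05 for array 5, and without exact 0 values they ran from -0.00254 to 0.000859. Whether and how the authors centred the columns is not stated.

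Multiplying by 3.32 gave log2 ratios. Values of exactly 0 (174 to 1068 per array) were treated as missing. The annotation gave 11813 probes 1 gene symbol, gave 559 several and did not list 9074. Symbols were updated by gene identifier through a RefSeq table of GRCm38.p6, which matched 11782 probes, and the annotation's symbol was kept for 31, among them those of Akap2. A gene's value was the mean of its probes with values on all 5 arrays. Of the signalling probes 1, of Pde12, lacked a value. Limma 3.58.1 in R 4.3.3 fitted an intercept to all 8825 genes with lmFit, tested with treat (2-fold test, two-sided) and with eBayes against 0, and the script was tested on simulated data. The number of arrays limits the precision.

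Members, lists and tests were chosen with earlier results of these data known. Genes named are those that passed, the farthest from 0 in each role, 11 measured genes of a list of 41 known in retina or cortex, genes whose probes differ in sign or by over 1 log2, and up to 4 partners that passed in each list. Others are examples chosen after their values were seen, as was the setting apart of Pde4dip, Pde12, Prkcsh, Adcyap1r1 and Gnb1l from the families with like symbols. Alternatives covered centring, scaling, missing values, noise, the probe rule, prior, weights, minimum fold, log base, exact 0 values and each array left out.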

Additional observations from a re-analysis of the deposited data

Results flagged for a closer look

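Among 121 measures checked (the 92 genes, 13 partners and the medians of the whole set and of the roles with at least 3 genes), 9 had 1 array far from the other 4, where chance gives about 5%. Array 2 stood apart for Adcy7, at -1.61 against -0.74 to -0.45, and for Camk2d, at 0.29 against 0.37 to 0.40. Array 5 stood apart for Camkv, at -0.58 against -0.995 to -0.913, for Pde8a, at 0.77 against 0.88 to 0.91, and for Marcksl1, at -2.99 against -2.85 on each of the others. Array 1 stood apart for Pde3b, at -0.53 against -0.41 to -0.39, and for the median of the AMP-activated kinase subunits, at 0.031 against 0.33 to 0.45. Array 4 stood apart for Gng2, at -2.57 against -2.40 to -2.37, and array 3 for Dgkd, at 0.15 against 0.21 to 0.22. Gng2 and Marcksl1 kept their calls with any array left out.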

How the results depend on the processing

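The ratio of each array sets retina against cortex on that same array, so the tests already used this pairing. The arrays form 1 group, so no pairing between groups of arrays was possible. A minimum of 1.5-fold gave 7 higher and 15 lower signalling genes, and 614 and 796 of all genes, as follows from the minimum. With the deposited values read as log2, the 2-fold test gave 0 higher and 0 lower signalling genes, 0 and 0 partners, and 3 and 4 of all genes, with a median ratio of -0.043 and a median SD of 0.023 for the signalling genes (at a ratio of 0, limma called 81 of the 92 on that base too), so the counts rest on the log base. Scaling the arrays gave 3 higher and 6 lower signalling genes, without Akap9, Camk1d and Gng12, and 197 and 268 of all genes. The median SD of the signalling genes was then 0.093. With each array left out in turn, 3 to 4 signalling genes were higher and 7 to 8 lower, and the median SD was 0.063 to 0.077. The median probe, which for genes with a pair of probes is the lower one and can only move them down, gave 3 higher and 12 lower genes, without Plcd3 and with Gnb2, Gnb4, Prkcb and Rgs17. Taking the higher of the pair instead gave 4 and 8, without Akap9 (-1.12, adjusted p = 0.0531 from limma) and with Prkcb, and a median ratio of -0.059. The least variable probe gave 3 and 11. That higher-probe rule and passing with every probe were chosen after seeing the data. Of 159 alternative values of counts and medians, 143 stayed within 1.5 times or within the spread between arrays. Of 1785 values of single genes, 1726 kept their side of the test, 41 fell below it, 18 passed anew and none that was called changed sign. Most of the 1785 belong to the 80 signalling genes without a call, many of them far from the threshold. The 1726 therefore do not measure how stable the calls are, and the 41 all fall on called genes. Spot signals were not used here, so which genes lie near background is unknown.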
